A study of Mus musculus with 8 samples.

Results

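The corticosteroid receptors and the genes that corticosteroids induce were examined in the hypothalamus (HT) of adult male C3H/HeN mice. They were 32 genes chosen by name, of 16585 genes tested in all, and were measured by the 44 array probes that carry those names. The MS group held 4 mice that had been taken from the dam each day from PND 2 to 14, while the dam underwent unpredictable stress, and the control group held 4 mice left with an undisturbed dam. All 8 mice were of 1 inbred strain without a transgene named in the labels, were weaned on PND 21 into cages of 1 sex and 1 condition, worked for a food reward in operant chambers and were fasted before culling. Each mouse, named here by its group and its number in the labels, gave 200 ng of HT RNA for 1 one-color array, so that a value measures 1 mouse. The numbers before the dot (8 and 6 for the control mice, 7 and 5 for the MS mice) may stand for a litter or cage, which the labels do not say, and the p-values measure only the spread between these mice.

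Corticosterone, the main glucocorticoid of the mouse, enters cells and binds receptors that wait in the cytoplasm with chaperones, move to the nucleus and change the transcription of genes near their binding sites. The mineralocorticoid receptor binds the hormone at low levels, and the glucocorticoid receptor is occupied mainly at the daily peak and under stress. In the HT, the hormone acts back on the neurons that start the stress response. The same receptors also act in astrocytes, oligodendrocytes and vessels, where many of the classical target genes are transcribed. The comparison asks whether early-life stress left a difference in the receptors or in their target genes in the adult HT.

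All 32 genes were well above the background of the array in all 8 mice. Across arrays, 34072 to 39596 probes were well above background and 0 spots were saturated. MS 7.6 had the dimmest array, with a 75th percentile of the signal of 499 against 751 to 902 in the other mice, and together with control 8.5 it had the fewest probes above background. The 10 marker genes of the HT were all measured, with an average level of 4.46 to 4.69 in the control mice and 4.17 to 4.64 in the MS mice, as log2 of the signal minus the 75th percentile of the array, the scale of all levels here. Of these 10 genes, 0 passed the test and 3 had an unadjusted p under 0.05 by limma, *Hcrt* (log2 fold change, MS minus control, -1.45), *Pmch* (-0.46) and *Npy* (0.19). *Hcrt* was low only in MS 5.3 (3.46) and MS 7.2 (3.54). In MS 7.1 (5.94) and MS 7.6 (5.62) it was within the range of the controls (5.51 to 6.65). The 6 astrocyte markers averaged 3.02 to 3.12 in the control and 3.15 to 3.19 in the MS mice, without overlap, and all 6 were above 0 with 0 past the test and 1, *Aqp4* (0.25), at an unadjusted p under 0.05. *Aqp4* itself was 1.59 to 1.77 in the control and 1.84 to 2.04 in the MS mice. Each of the other astrocyte markers overlapped between the groups, with log2 fold changes of 0.02 to 0.08. The part of the astrocyte markers in the values of the corticosteroid genes was not tested. The 4 measured pituitary genes averaged 5.59 in control 6.2 and 1.63 to 2.82 in the other mice. All 4 were below 0, with 0 past the test and 1, *Tshb* (-2.19), at an unadjusted p under 0.05 by limma. Since the RNA came from whole tissue, fewer cells of a type and less RNA per cell cannot be told apart.

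No difference between MS and control mice was detected in these genes. None of the 32 genes passed the test (limma, adjusted p over all 37312 probes tested), and 0% of all probes did. At an unadjusted p under 0.05 the count was also 0 of 32, against 2.62% of all genes and 1270 (3.4%) of all probes. The values of the control and MS mice were apart, without overlap, in 0 of 32 genes, against 1.77% of all genes. The log2 fold change, MS minus control, was above 0 in 18 of 32 genes (against 53.7% of all genes), and its median was 0.02, against 0.01 over all genes. Single log2 fold changes ran from -0.38 for *Lcn2* to 0.19 for *Sgk1*, and the median size without regard to sign was 0.07, against 0.06 over all genes. The 95% confidence interval of limma lay within a 2-fold change either way for 31 genes, all except *Lcn2*, and within a 1.5-fold change for 26. Adjusted p-values lay between 0.989 and 1. MS 7.6 weighed on the direction, since without it 13 genes were above 0 and the median log2 fold change was -0.04, and without both MS 7.6 and control 8.5 the count was 11 and the median -0.07. With the slide row as a block both stayed at 18 genes and 0.02. This was fixed in advance, since each row held as many control as MS mice.

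**Figure D1:**
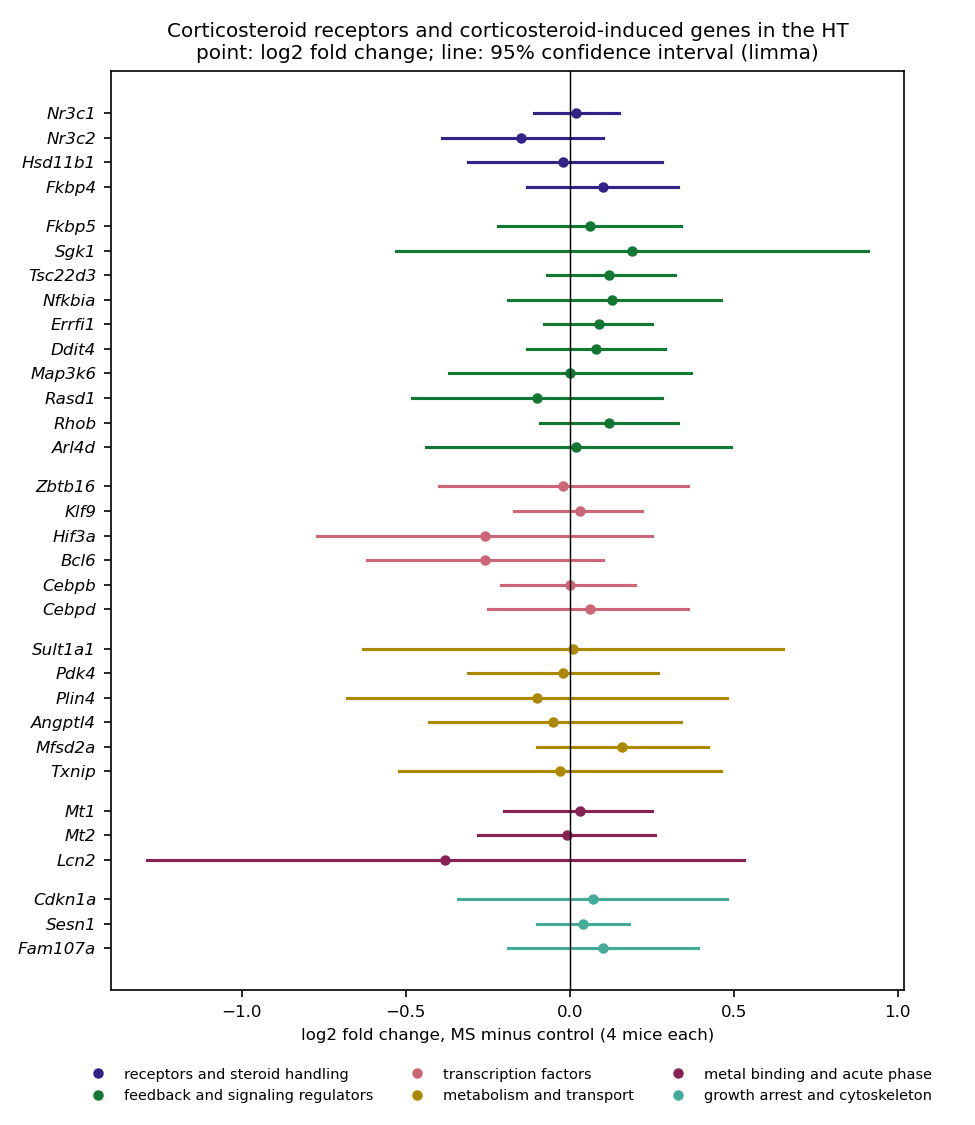
Log2 fold change of the 32 genes, MS minus control, with the 95% confidence interval of limma (4 mice per group), colored by role. Every interval crosses 0, and only that of *Lcn2* reaches past a 2-fold change, from -1.29 to 0.53.

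The glucocorticoid receptor gene *Nr3c1* had the narrowest interval among the 4 genes of the receptors and of steroid handling. Its level was 4.02, 3.96, 3.93 and 4.09 in controls 6.2, 8.2, 8.4 and 8.5, and 4.04, 3.97, 4.02 and 4.04 in MS 5.3, 7.1, 7.2 and 7.6. The mice of both groups covered the same narrow range, with a 1.12-fold distance between the lowest and the highest mouse. The log2 fold change was 0.02 (SE 0.06, 95% confidence interval -0.11 to 0.15, adjusted p = 0.992 by limma). A dimmer probe for *Nr3c1* gave -0.14 (unadjusted p = 0.25 by limma), and over the 8 mice both probes ran in opposite directions (r = -0.86), so that small differences between mice in this gene depended on the probe. The SD within groups of the probe used here was above that of only 8.5% of all genes.

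The mineralocorticoid receptor gene *Nr3c2* stood at -2.72, -2.68, -2.73 and -2.84 in controls 6.2, 8.2, 8.4 and 8.5. It stood at -3.04, -2.60, -2.82 and -3.08 in MS 5.3, 7.1, 7.2 and 7.6. MS 5.3 and 7.6 were below all controls, while MS 7.1 was above all of them. The log2 fold change was -0.15 (SE 0.11, 95% confidence interval -0.39 to 0.10, adjusted p = 0.989 by limma). It kept its sign under all 21 alternative settings, which reuse the same mice and some of which cannot change a log2 fold change. Its size ranged from -0.24 to -0.04 among them, with -0.04 under another background correction (normexp). Its probe lay at chr8:79766370-79766429 on mm9, the build of the array files, which give no exon or intron for a probe.

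*Hsd11b1*, the enzyme that regenerates active corticosterone inside cells, was between 0.46 and 0.60 in the control mice (0.60, 0.53, 0.47 and 0.46 in 6.2, 8.2, 8.4 and 8.5). It was 0.44, 0.27, 0.38 and 0.89 in MS 5.3, 7.1, 7.2 and 7.6. MS 7.6 was the highest of all mice and the other 3 MS mice were the lowest, and the mean hardly differed, with a log2 fold change of -0.02 (SE 0.13, 95% confidence interval -0.31 to 0.28). *Fkbp4*, a co-chaperone that helps the receptor on its way to the nucleus, was 1.33, 1.5, 1.41 and 1.45 in the controls in the same order and 1.80, 1.36, 1.42 and 1.51 in the MS mice. MS 5.3 was above every other mouse, and the log2 fold change was 0.10 (SE 0.10, 95% confidence interval -0.13 to 0.33).

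The co-chaperone *Fkbp5* lowers the affinity of the receptor for its hormone and is itself induced by the receptor, which has made it a common readout of corticosteroid action in the brain. Its level was 1.99, 1.74, 2.06 and 2.16 in controls 6.2, 8.2, 8.4 and 8.5, and 1.81, 1.98, 2.16 and 2.26 in MS 5.3, 7.1, 7.2 and 7.6. The probe lay at chr17:28536060-28536119 on mm9. MS 7.6 was the highest mouse and control 8.2 the lowest, and the groups overlapped over most of their range. The log2 fold change was 0.06 (SE 0.12, 95% confidence interval -0.22 to 0.34, adjusted p = 0.989 by limma). The interval corresponds to less than a 1.5-fold change either way.

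*Sgk1*, a kinase that acts on ion channels and transporters, had the largest positive log2 fold change of the 32 genes and a wide spread in both groups. It was 2.02, 2.08, 2.67 and 1.37 in controls 6.2, 8.2, 8.4 and 8.5, and 2.09, 1.59, 2.60 and 2.62 in MS 5.3, 7.1, 7.2 and 7.6. The lowest and the highest mouse, 2.46-fold apart, were both controls, at the probe chr10:21719507-21719566 on mm9. The log2 fold change of 0.19 (SE 0.31, 95% confidence interval -0.53 to 0.91, adjusted p = 0.989 by limma) was smaller than the SD within groups of 0.51, and it was -0.03 without control 8.5. *Tsc22d3*, which encodes the anti-inflammatory leucine zipper protein GILZ, was much tighter, at 4.07, 4.18, 4.25 and 4.17 in the controls and 4.17, 4.16, 4.34 and 4.49 in the MS mice in the same order. Only MS 7.2 and 7.6 were above all controls, and the log2 fold change was 0.12 (SE 0.09, 95% confidence interval -0.07 to 0.32).

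The remaining 7 genes of feedback and signaling overlapped between the groups as well, and 8 of the 10 genes in this group of roles were above 0, with a median of 0.08. Log2 fold changes were 0.13 for *Nfkbia*, the inhibitor that holds NF-kappaB in the cytoplasm, 0.09 for *Errfi1*, an inhibitor of the EGF receptor, and 0.08 for *Ddit4*, an inhibitor of the mTOR complex. They were 0.12 for the small GTPase *Rhob*, 0.02 for the small GTPase *Arl4d*, 0.00 for the kinase *Map3k6* and -0.10 for the Ras-like protein *Rasd1*. The sign for *Rhob* depended on the probe, since its dimmer probe gave -0.14. The 95% confidence intervals of all 7 crossed 0.

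**Figure D2:**
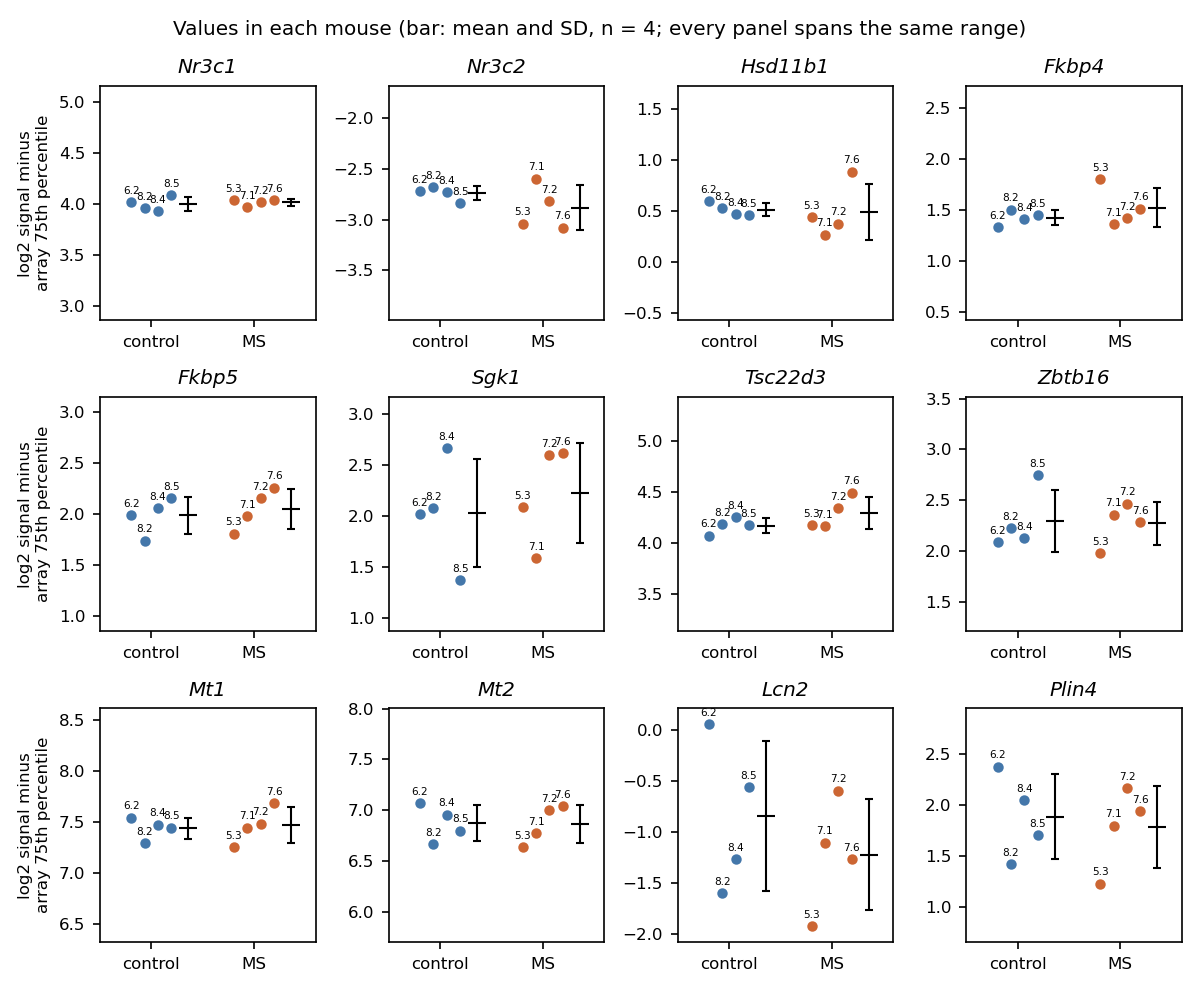
Level of 12 genes in each mouse, as log2 signal minus the 75th percentile of the array, with the number of the mouse above each point and the mean and SD (n = 4) beside each group. The axes span the same range in all panels, so that the tight *Nr3c1* (SD within groups 0.06) can be set against the wide *Lcn2* (0.65) and *Sgk1* (0.51), and the groups overlap in every panel.

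Among the 6 transcription factors, 2 were above 0 and the median log2 fold change was -0.01. *Zbtb16*, a zinc-finger factor strongly induced by glucocorticoids in many cells, was 2.09, 2.23, 2.13 and 2.75 in controls 6.2, 8.2, 8.4 and 8.5, and 1.98, 2.36, 2.47 and 2.29 in MS 5.3, 7.1, 7.2 and 7.6. Control 8.5 was above all other mice, and the log2 fold change was -0.02 (SE 0.16, 95% confidence interval -0.40 to 0.36). *Bcl6*, a transcriptional repressor, had the smallest unadjusted p of the 32 genes, 0.139, with a log2 fold change of -0.26 (SE 0.16, 95% confidence interval -0.62 to 0.10, adjusted p = 0.989 by limma). Its controls lay close together at 2.71 to 2.88, while the MS mice reached from 2.16 to 2.97, with 3 of them below all controls and MS 7.6 above all of them.

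*Hif3a*, a hypoxia-inducible factor, was 0.97, 0.38, 1 and 0.80 in the controls and 0.04, 0.34, 0.84 and 0.90 in the MS mice in the same order. MS 5.3 and 7.1 were below all controls and the other 2 MS mice were within their range, with a log2 fold change of -0.26 (SE 0.22, 95% confidence interval -0.77 to 0.25). *Bcl6* and *Hif3a* stayed below 0 under all 21 alternative settings, some of which cannot change a log2 fold change, with no adjusted p under 0.582. Dimmer probes of *Hif3a* gave -0.09 and -0.03, with r = 0.94 and -0.51 to the probe used here. *Klf9*, a Krüppel-like factor, and the C/EBP factors *Cebpb* and *Cebpd* had log2 fold changes of 0.03, 0.00 and 0.06.

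The 6 genes of metabolism and transport included 2 of the widest spreads. *Sult1a1*, a sulfotransferase of phenols, was 2.24, 1.49, 2.29 and 2.30 in controls 6.2, 8.2, 8.4 and 8.5, and 1.67, 1.89, 1.97 and 2.83 in MS 5.3, 7.1, 7.2 and 7.6. Control 8.2 was the lowest and MS 7.6 the highest, 2.54-fold apart, and the means nearly coincided (log2 fold change 0.01, SE 0.28, 95% confidence interval -0.63 to 0.65). *Plin4*, a coat protein of lipid droplets, was 2.38, 1.42, 2.05 and 1.71 in the controls and 1.23, 1.80, 2.17 and 1.94 in the MS mice. MS 5.3 was the lowest and control 6.2 the highest, with a log2 fold change of -0.10 (SE 0.25, 95% confidence interval -0.68 to 0.48).

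*Mfsd2a*, the transporter that carries docosahexaenoic acid across the blood-brain barrier, had a log2 fold change of 0.16 (SE 0.11, 95% confidence interval -0.10 to 0.42). MS 7.6 alone, at 3.53, lay apart from the other mice, which were at 2.97 to 3.18. *Pdk4*, a kinase that restrains the use of glucose, *Angptl4*, an inhibitor of lipoprotein lipase, and *Txnip*, which binds thioredoxin, had log2 fold changes of -0.02, -0.05 and -0.03. All 3 are also known to respond to fasting, a state that all 8 mice shared.

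The metallothioneins *Mt1* and *Mt2*, which bind zinc and copper, moved closely together from mouse to mouse, with groups that overlapped. *Mt1* was 7.54, 7.29, 7.47 and 7.44 in controls 6.2, 8.2, 8.4 and 8.5, and 7.25, 7.44, 7.48 and 7.68 in MS 5.3, 7.1, 7.2 and 7.6, with a log2 fold change of 0.03 (SE 0.10, 95% confidence interval -0.20 to 0.25). *Mt2* was 7.07, 6.67, 6.96 and 6.80 in the controls and 6.64, 6.78, 7 and 7.04 in the MS mice, with a log2 fold change of -0.01 (SE 0.12, 95% confidence interval -0.28 to 0.26). The probes lay close to each other, at chr8:96704165-96704224 for *Mt1* and chr8:96697371-96697430 for *Mt2* on mm9. Control 8.2 and MS 5.3 were the lowest mice for both genes, and control 6.2 and MS 7.6 the highest. A much dimmer probe of *Mt1* gave 0.20, with r = 0.54 to the probe used here.

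*Lcn2*, an acute-phase protein that binds bacterial iron carriers, varied most. It was 0.06, -1.60, -1.26 and -0.56 in controls 6.2, 8.2, 8.4 and 8.5, and -1.92, -1.10, -0.59 and -1.26 in MS 5.3, 7.1, 7.2 and 7.6. The highest mouse, control 6.2, was 3.94-fold above the lowest, MS 5.3, and both groups covered most of this range. The log2 fold change of -0.38 (SE 0.40, 95% confidence interval -1.29 to 0.53, adjusted p = 0.989 by limma) was within the SD within groups of 0.65. It was -0.08 without control 6.2 and -0.15 without MS 5.3, and it was 0.18 in row 1 and -0.93 in row 2 of the slide. Control 6.2 was also the mouse with the high pituitary genes, whose part in this value was not tested.

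The last group held *Cdkn1a*, an inhibitor of the cell cycle, *Sesn1*, a stress-induced inhibitor of growth signaling, and *Fam107a*, an actin-bundling protein. With the brightest probe all 3 were above 0, with log2 fold changes of 0.07, 0.04 and 0.10 and intervals that crossed 0. *Sesn1* was the steadiest of them, with an SD within groups of 0.07 and 1.14-fold between the lowest and the highest mouse. A dimmer probe of *Cdkn1a* gave -0.10, and a further one was above background on 0 arrays and was not tested. The other probe of *Fam107a*, nearly as bright, gave 0.01 and followed the probe used here only loosely (r = 0.24).

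No difference was detected in other genes of the corticosteroid pathway either. Of 18 chaperones and co-regulators of the receptors, 18 were tested, 0 passed the test in either direction and 0 had an unadjusted p under 0.05, with 14 above 0. The smallest p among those above 0 was that of the heat-shock protein *Dnajb1* (log2 fold change 0.23, SE 0.11, unadjusted p = 0.0642 by limma), and among those below 0 that of the acetyltransferase *Ep300* (-0.09, SE 0.10, unadjusted p = 0.41 by limma). Of 8 genes of steroid supply and clearance, 6 were tested and 0 passed in either direction. *Hsd11b2*, which inactivates corticosterone, and *Cyp11a1*, the first enzyme of steroid synthesis, were not well above background on enough arrays. The smallest p was that of the hydroxysteroid dehydrogenase *Akr1c14* below 0 (-0.34, SE 0.20, unadjusted p = 0.135 by limma) and of the steroid reductase *Srd5a1* above 0 (0.04, SE 0.08, unadjusted p = 0.597 by limma).

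Of 10 further genes that corticosteroids regulate, 10 were tested and 0 passed in either direction. *Crh*, the releasing hormone whose transcription in the paraventricular nucleus the glucocorticoid receptor represses, had the smallest p. The groups overlapped only through control 8.5, and the log2 fold change was -0.34 (SE 0.15, unadjusted p = 0.0515 and adjusted p = 0.989 by limma). Above 0, the smallest p was that of the phosphatase *Dusp1* (0.11, SE 0.09, unadjusted p = 0.263 by limma).

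The corticosteroid genes differed more from mouse to mouse than most genes. Their median SD within groups was 0.20 on the log2 scale, against 0.11 over all 16585 genes. Of the 32 genes, 29 were above the median SD of all genes and 20 were above its upper quartile, which 25% of all genes exceed. In 15 genes the lowest and the highest of the 8 mice were more than 1.5-fold apart, and the share over all genes was not counted. By role, the median SD was 0.15 for the receptors and steroid handling, 0.20 for feedback and signaling, 0.23 for the transcription factors, 0.30 for metabolism and transport, 0.18 for metal binding and acute phase and 0.19 for growth arrest and cytoskeleton. After *Lcn2* (0.65), the widest were *Sgk1* (0.51), *Sult1a1* (0.46), *Plin4* (0.41) and *Hif3a* (0.36), and the narrowest were *Nr3c1* (0.06), *Sesn1* (0.07) and *Errfi1* (0.09).

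Part of this spread was shared, and 1 mouse stood out. In MS 7.6, 27 of the 32 genes were above their mean over the 8 mice, 16 had their highest value, and the median deviation was 0.23. Such counts were not made over all genes, so they cannot be called particular to the 32 genes in this mouse. The median over all genes was 0.01 there, a value that the scaling of each array by its own 75th percentile holds near 0. In MS 7.1, 5 of the 32 genes were above their mean, and the median deviation was -0.12. Control 8.4 and MS 7.2 had 22 and 23 genes above the mean, with a median deviation of 0.07 each, and the other 4 mice had medians of -0.07 to -0.03. The highest and the lowest mouse were thus both in the MS group, and both lay in row 2 of the slide. MS 7.6 was also the mouse with the dimmest array. Of the 10 marker lists, it had the highest average for endothelium (1.37 against 1.13 to 1.28 in the other mice), choroid plexus (-0.35 against -1.23 to -0.57), astrocytes (3.19 against 3.02 to 3.17), neurons (5.33 against 5.15 to 5.31) and microglia (2.06 against 1.89 to 2.05), and its fibroblast markers, at 0.65, were below only those of control 8.5 (0.70). The 32 genes had a median level of 1.98, against 0.43 over all genes, and 69.5% of all genes were dimmer than their median. The part of the array, of the brightness of the genes and of these cell types in the high values of MS 7.6 was not tested.

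**Figure D3:**
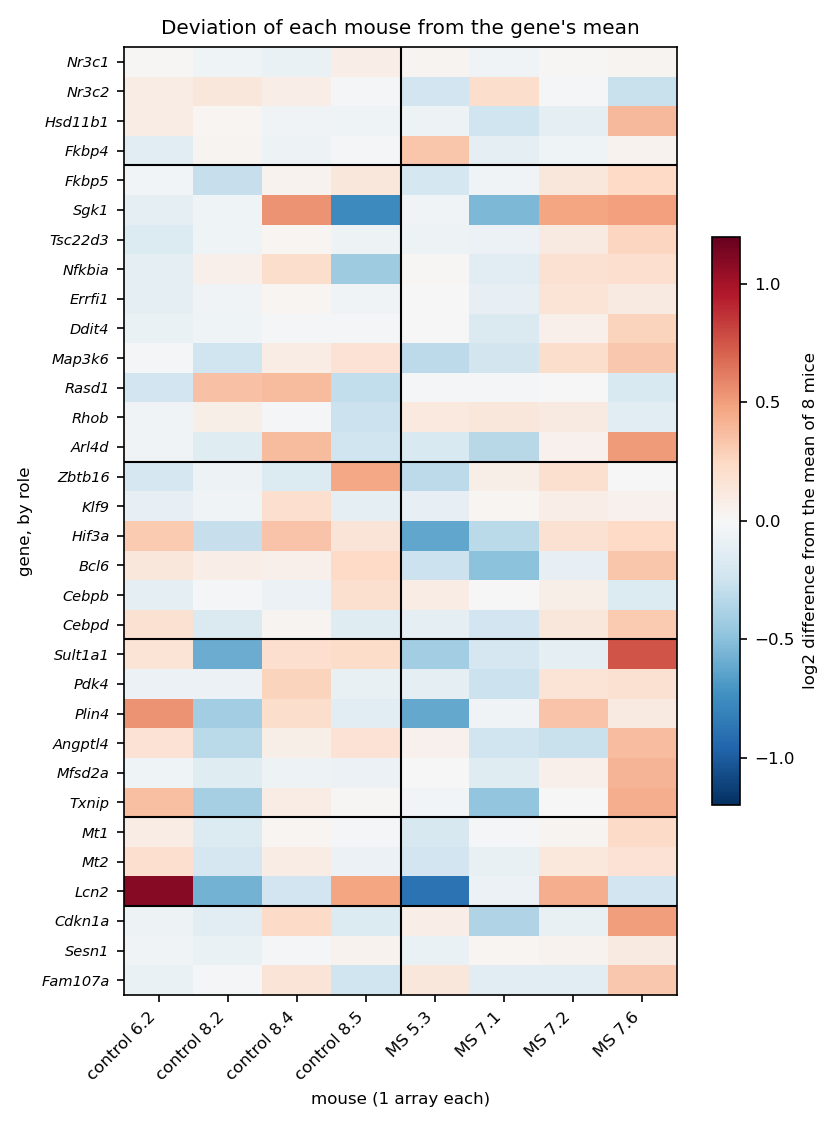
Deviation of each mouse (columns, 1 array each) from the mean of the gene over the 8 mice (rows, by role), as a log2 difference. MS 7.6 is above the mean in 27 of 32 genes, MS 7.1 in 5, and no color divides the 4 control from the 4 MS columns.

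From gene to gene, the 32 genes tended to go up and down together over the 8 mice. The median Pearson's correlation over their 496 pairs was 0.33, against 0.01 over the 137456490 pairs of all genes tested, as a description over 8 mice in which all genes of a mouse share 1 array and its brightness. It was above 0.7 in 80 pairs (16.1%, against 4.57% of all pairs) and below -0.7 in 10 pairs (2.02%, against 3.77%). After the means of the groups were subtracted the median was 0.37, and after the means of the slide rows were subtracted it was 0.38. It was 0.23 without MS 7.6. The 4145 genes above the upper quartile of the SD had a median of 0.01 and 5.38% of pairs above 0.7. The 20 corticosteroid genes among them had 0.50 and 23.7%. Each array was scaled by its own 75th percentile, which tends to bring such a median over many genes near 0. The genes compared were not matched for brightness, and the part of spread and brightness in the common course was not tested.

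*Arl4d*, *Map3k6* and *Cebpd* were the genes nearest to the common course, with a median correlation to the other genes of 0.66, 0.62 and 0.60. *Cebpb* (-0.38), *Rhob* (-0.33) and *Nr3c2* (-0.33) ran against most of the others. The dimmer probe of *Rhob* did not follow the one used here (r = -0.06), so that its place depends on the probe. *Nr3c1* had a median correlation of 0.14, over the narrow range of a probe that the dimmer one ran against. The mineralocorticoid receptor gene was lowest in MS 7.6 (-3.08), the mouse with the dimmest array, where 16 of the 32 genes were highest. It was nearly as low in MS 5.3 (-3.04), where 8 of the 32 genes were lowest. The part of the brightness of the array in the values of *Nr3c2* was not tested. The correlation of *Nr3c2* was -0.81 with *Ddit4* and -0.80 with *Mfsd2a*. Neither passed the test (exact permutation tests, adjusted p = 0.176 and 0.157 over the 496 pairs). The lowest value of any pair was that of *Nr3c1* and *Rasd1* (-0.86), which rests on the same *Nr3c1* probe.

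**Figure D4:**
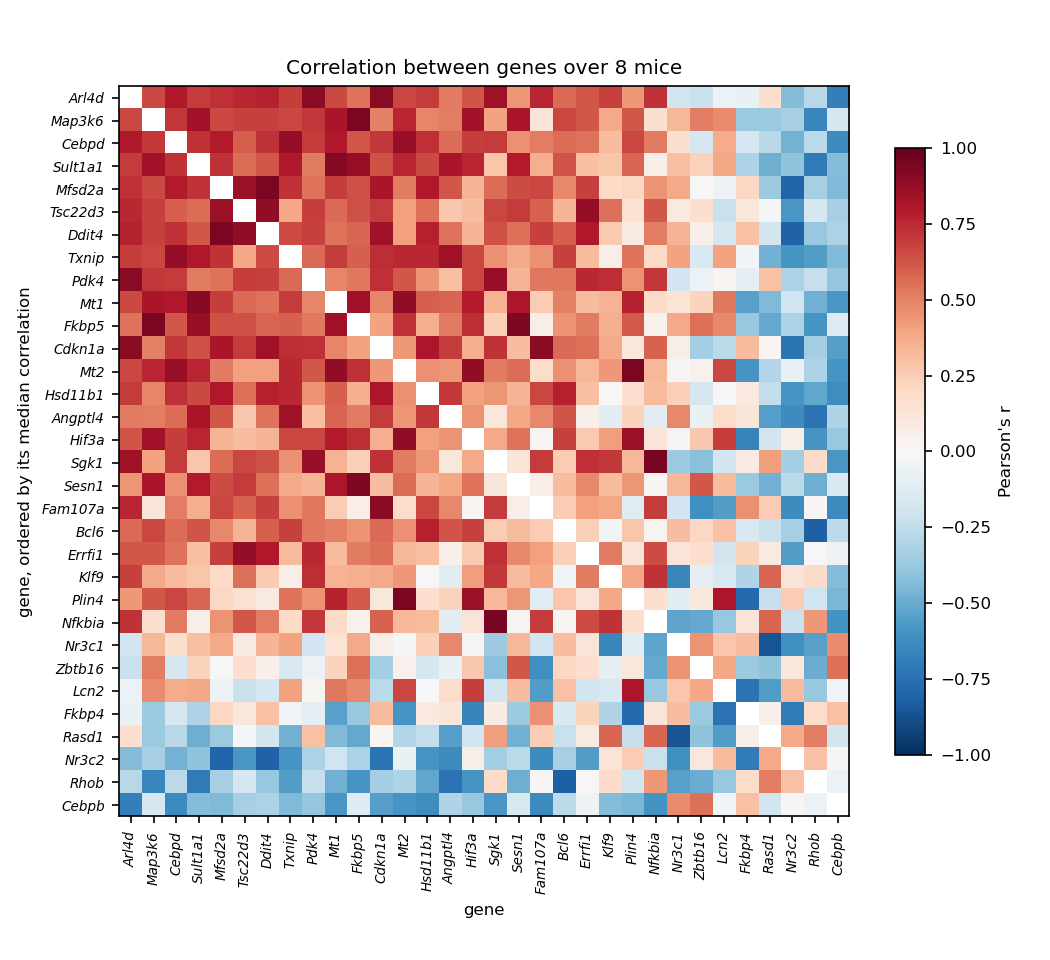
Pearson's correlation over 8 mice between each pair of the 32 genes, ordered by the median correlation of a gene with the others (diagonal left blank). The block of genes from *Arl4d* to *Nfkbia* is mostly positive, and *Fkbp4*, *Rasd1*, *Nr3c2*, *Rhob* and *Cebpb* have negative medians (-0.07 to -0.38).

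*Sgk1* and *Nfkbia* formed the closest pair. Both were lowest in control 8.5, next lowest in MS 7.1 and highest in control 8.4, MS 7.2 and MS 7.6, where *Nfkbia* was 2.93, 2.91 and 2.92. Pearson's r was 0.95 and Spearman's rho 0.98 over 8 mice, and the exact permutation p of r, two-sided, was 9.92e-05. Adjusted over the 496 pairs, this was 0.0492 for r and 0.0943 for rho, and it was the only pair past the test (86 pairs, 17.3%, had an unadjusted p under 0.05). Without the 2 mice farthest from the median of *Sgk1*, r was 0.93, and it was 0.94 to 0.97 with each mouse left out. The adjusted p was 0.0738 with median scaling or in the authors' table, and 0.0787 to 0.197 without any 1 mouse other than MS 7.6, with fewer pairings to draw on.

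Marker genes of neurons and oligodendrocytes moved in part with this pair. The 5 neuron markers averaged 5.15 to 5.31 in the control and 5.23 to 5.33 in the MS mice and were lowest in control 8.5. Their average had r = 0.73 with *Sgk1* and r = 0.87 with *Nfkbia* (rho 0.67 and 0.76, unadjusted p of r 0.032 and 0.0107 by exact permutation tests, adjusted p = 0.499 for both over 48 such relations). Without the 2 farthest mice, r was 0.41 with *Sgk1* and 0.56 with *Nfkbia*. The 6 oligodendrocyte markers averaged 3.26 in control 8.5 and 3.54 to 3.76 in the other mice, with r = 0.77 with *Nfkbia*, which became -0.22 without 2 mice. Their part in the course of *Sgk1* and *Nfkbia* was not tested, and the relations were chosen after the values were seen.

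*Fkbp5* was taken as the reference for a further set of correlations. Over its 31 pairs the median r was 0.52 and 26 were positive, and 3 passed the test (exact permutation test, two-sided, adjusted over the 31 pairs). The kinase *Map3k6* had r = 0.94 and rho = 0.95 (exact adjusted p = 0.01 and 0.0346), *Sesn1* had r = 0.93 and rho = 0.90 (exact adjusted p = 0.0181 and 0.0472), and *Sult1a1* had r = 0.87 and rho = 0.93 (exact adjusted p = 0.0479 and 0.0346). Without control 8.2 and MS 7.6, the 2 mice farthest from the median of *Fkbp5*, r was 0.94 with *Map3k6*, 0.87 with *Sesn1* and 0.67 with *Sult1a1*. In 496 pairs rather than 31, none of the 3 passed (0.08 for *Map3k6*). The number past the test was 0 without control 8.4, control 8.5 or MS 7.6, and 1 without control 8.2 or MS 5.3.

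*Fkbp5* and *Sgk1*, both classical target genes, had r = 0.24 (rho 0.21, exact permutation p = 0.551, adjusted p = 0.61 over the 31 pairs). They parted most in control 8.5, where *Fkbp5* was 2.16, among its highest values, and *Sgk1* was 1.37, its lowest. *Nfkbia* parted from *Fkbp5* in the same way (r = 0.04). After the slide rows were subtracted, r was 0.63 for *Sgk1* and 0.42 for *Nfkbia*. *Fkbp5* was also higher in mice with fewer probes above background (r = -0.71, rho = -0.69, exact permutation p = 0.0507 and 0.0694, adjusted p = 0.499 over 48 relations). Its r was 0.69 with the microglia markers and 0.65 with the fibroblast markers (rho 0.74 for both, exact permutation p of rho 0.0458, adjusted p = 0.66), and that of *Map3k6* with the fibroblast markers was 0.68 (rho 0.57). Without the 2 farthest mice, r was -0.31 with the probes above background, 0.53 with the microglia and 0.34 with the fibroblast markers for *Fkbp5*, and 0.68 with the fibroblast markers for *Map3k6*. The part of these measures in the course of *Fkbp5* and *Map3k6* was not tested.

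**Figure D5:**
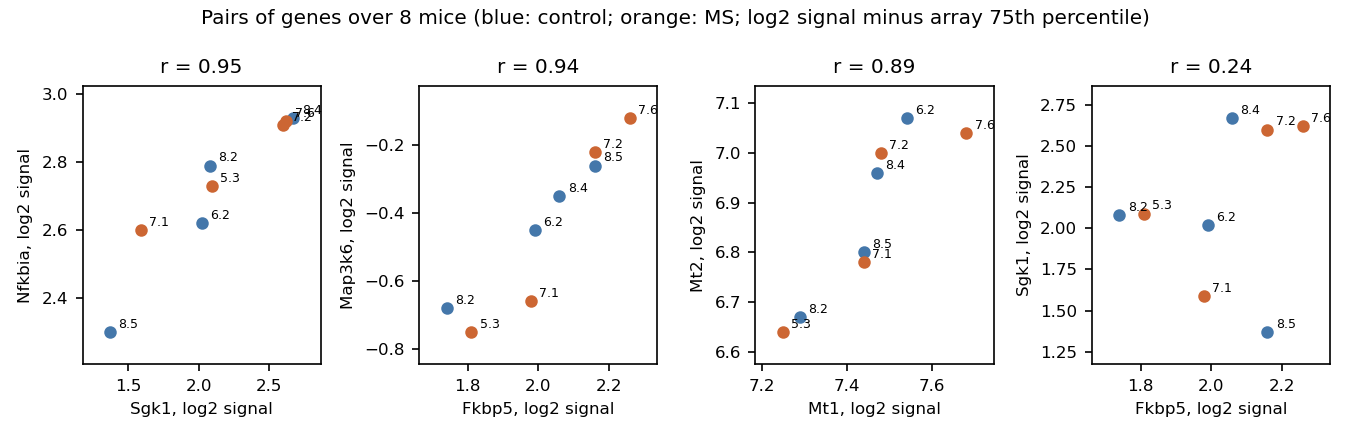
Level of 4 pairs of genes in the 8 mice, as log2 signal minus the 75th percentile of the array, with the number of each mouse and Pearson's r above the panel. *Sgk1* with *Nfkbia* (0.95), *Fkbp5* with *Map3k6* (0.94) and *Mt1* with *Mt2* (0.89) lie near a line with control and MS mice mixed along it. *Fkbp5* with *Sgk1* (0.24) do not, and they part most in control 8.5. With 1 mouse left out, r of this pair was 0.02 to 0.61.

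Beside these, *Ddit4* with *Mfsd2a* and *Plin4* with *Mt2* had r = 0.94, *Mt1* with *Mt2* had r = 0.89 (rho 0.98) and *Tsc22d3* with *Ddit4* had r = 0.89. None of these passed the test adjusted over 496 pairs (exact permutation tests, adjusted p = 0.102, 0.0984, 0.0943 and 0.153). Without the 2 farthest mice, r fell to 0.71 for *Ddit4* with *Mfsd2a* and to 0.42 for *Tsc22d3* with *Ddit4*, while *Mt1* with *Mt2* kept 0.90. With only 1 mouse left out, the lowest r was 0.79 for *Ddit4* with *Mfsd2a* and 0.68 for *Tsc22d3* with *Ddit4*.

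The starts of *Sgk1*, *Mt1* and *Mt2* are shown as chosen examples that hold letters that the receptor or the metal factor is known to bind. RefSeq windows of 300 bases (250 before the start and 50 from it on, build GRCm38.p6) were at hand for 27 of the 32 genes, in 40 windows. The full receptor element AGAACANNNTGTTC (a pair of half-sites as an inverted repeat), on either strand, was found in 1 of these 40 windows (2.5%) and in 16 of 32851 windows of all genes (0.0487%). That window belongs to *Sgk1*, which has 6 windows, at chr10:21993640-21993939 on the plus strand, and the element lies 189 bases before the start. The half-site AGAACA, which the full element also contains, was in 8 of 40 windows (20%) and in 19% of all windows. The core of the metal response element, TGCACNC or TGCGCNC on either strand, was in 13 of 40 windows (32.5%) and in 25.7% of all windows. The windows of *Mt1* (chr8:94178839-94179138, plus strand) and *Mt2* (chr8:94172368-94172667, plus strand), neighbors on chromosome 8, held 3 and 4 such cores. Some of the cores in *Mt1* and *Mt2* lie past the start, and the windows of other genes with a core or a half-site are not shown. A match is a description of the letters, and elements outside these windows were not searched. The capitals mark the receptor element in *Sgk1* and the metal response cores in *Mt1* and *Mt2*.
Sgk1: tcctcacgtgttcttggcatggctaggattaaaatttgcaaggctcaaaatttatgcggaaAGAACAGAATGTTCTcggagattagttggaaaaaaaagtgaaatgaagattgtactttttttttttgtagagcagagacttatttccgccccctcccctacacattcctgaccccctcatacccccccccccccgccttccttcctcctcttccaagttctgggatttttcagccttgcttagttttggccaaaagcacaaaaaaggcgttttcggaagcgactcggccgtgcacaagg
Mt1: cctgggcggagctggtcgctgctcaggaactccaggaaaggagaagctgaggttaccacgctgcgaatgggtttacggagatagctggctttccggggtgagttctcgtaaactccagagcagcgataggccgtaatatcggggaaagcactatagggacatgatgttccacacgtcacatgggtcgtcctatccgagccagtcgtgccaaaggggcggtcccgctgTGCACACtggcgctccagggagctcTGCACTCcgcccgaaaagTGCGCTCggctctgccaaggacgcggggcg
Mt2: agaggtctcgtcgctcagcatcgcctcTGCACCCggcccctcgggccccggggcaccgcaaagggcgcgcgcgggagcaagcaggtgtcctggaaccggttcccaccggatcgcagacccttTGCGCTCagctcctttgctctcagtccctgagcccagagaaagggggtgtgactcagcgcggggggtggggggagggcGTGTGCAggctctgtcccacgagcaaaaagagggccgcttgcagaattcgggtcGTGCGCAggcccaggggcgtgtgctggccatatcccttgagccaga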

How the data were processed

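Arrays of the HT of 4 control and 4 MS male C3H/HeN mice were analysed, grouped by their labels. The authors deposited the scanner output of 1 array per mouse, in which each spot has an intensity (gProcessedSignal, background-subtracted and detrended) from Agilent Feature Extraction 10.10.1.1. A deposited table of log2 values per probe, made by the authors with limma according to the submitters' notes and with a normalization not given in the sources read, served as an alternative. The headers give mm9 and another array design number than the methods.

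The software was R (4.3.3), limma (3.58.1) and data.table (1.17.8). Control and outlier spots were left out, log2 signals were averaged per probe (55681 probes from 59305 spots) and the 75th percentile of each array was subtracted. A filter kept the 37312 probes (67%) that 4 or more of the 8 arrays measured well above background. The methods' lmFit, followed by eBayes, gave two-sided tests with Benjamini-Hochberg adjustment at 0.05, with 95% confidence intervals. Missing values on 17 of these probes were left out of their fit. The 32 genes were matched by name. The accession of 41 of their 44 probes gave the same symbol in a RefSeq table and 0 gave another, and the rest were named by the files alone. The brightest tested probe stood for a gene, and 10 genes had several. The number of arrays limits the precision, and levels of different probes cannot be compared. Correlations had exact permutation tests over all 40320 pairings of 8 mice. The fit was tested on simulated data.

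Text values follow a rule: all 32 genes by role, values by mouse for the receptors and steroid handling, *Fkbp5*, *Sgk1*, *Tsc22d3*, *Zbtb16*, *Mt1*, *Mt2*, genes with an unadjusted p under 0.05 or groups without overlap, and the 5 of largest SD, and the smallest p in each direction from 3 pathway lists. Marker lists covered the HT, neurons, astrocytes, oligodendrocytes, endothelium, microglia, fibroblasts, choroid plexus, pituitary and blood. The genes and lists were chosen with earlier results of these data known. Alternatives were normexp correction (offset 50), quantile or median scaling, other filters, the authors' table, the slide row as a block or alone, a random block for the first part of the mouse number, an intensity trend, the mean of the probes, and leaving out mice.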

Additional observations from a re-analysis of the deposited data

Results flagged for a closer look

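In 4 of 64 groups of 4 mice examined (32 genes in the control and in the MS mice), 1 mouse lay far from the other 3, by a rule that chance meets in about 1 in 20 groups. *Rasd1* was -0.57 in MS 7.6, the lowest MS mouse, with the nearest at -0.40. *Rhob* was -0.01 in MS 7.6, the lowest MS mouse, with the nearest at 0.22. *Sult1a1* was 1.49 in control 8.2, the lowest control, with the nearest at 2.24. *Pdk4* was 0.39 in control 8.4, the highest control, with the nearest at 0.04.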

How the results depend on the processing

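None of the 32 genes passed the limma test under any of the 21 alternative settings (lowest adjusted p 0.582), and 0 genes of the 3 pathway lists did. Over all probes the count past the test was 0, except 1 in row 2 of the slide alone and 1 with a random block for the first part of the mouse number (consensus correlation -0.193), neither of them a probe of the 32 genes. Of 672 single log2 fold changes, 577 kept their sign and 95 turned it, none past the test, and 9 genes kept it throughout. The other filters, the intensity trend and the slide row as a block cannot change these log2 fold changes. Part of the kept signs was thus fixed in advance. The number of genes above 0 was 16 to 23 under the settings that kept all mice, 13 to 24 with 1 mouse left out and 11 without control 8.5 and MS 7.6, a setting chosen after seeing the data. The cause of the turned signs was not tested. No paired analysis was possible because the groups share no replicate number in the labels.

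Turned log2 fold changes were 0.01 for *Cebpb* with normexp correction, and with quantile normalization -0.01 for *Nr3c1*, 0.01 for *Map3k6*, -0.01 for *Sult1a1* and -0.01 for *Mt1*. With median scaling they were 0.01 for *Hsd11b1*, 0.02 for *Map3k6*, 0.02 for *Cebpb*, 0.00 for *Pdk4* and 0.01 for *Mt2*, and with the authors' log2 values 0.00 for *Nr3c1*, 0.02 for *Cebpb* and -0.01 for *Sult1a1*. In row 1 of the slide alone they were -0.03 for *Sgk1*, -0.04 for *Nfkbia*, 0.03 for *Map3k6*, -0.18 for *Arl4d*, 0.05 for *Zbtb16*, -0.09 for *Klf9*, 0.12 for *Cebpb*, -0.06 for *Sult1a1*, 0.01 for *Angptl4*, 0.14 for *Txnip*, -0.01 for *Mt1*, 0.00 for *Mt2*, 0.18 for *Lcn2*, -0.05 for *Cdkn1a* and -0.06 for *Fam107a*. In row 2 alone they were -0.05 for *Nr3c1*, 0.05 for *Hsd11b1*, 0.17 for *Rasd1* and 0.04 for *Pdk4*. With the random block they were 0.03 for *Map3k6*, 0.01 for *Plin4*, 0.01 for *Txnip* and 0.04 for *Mt2*, and with the mean of the probes -0.06 for *Nr3c1*, 0.03 for *Map3k6*, -0.01 for *Rhob* and -0.02 for *Cdkn1a*. Without control 8.5 and MS 7.6 they were -0.16 for *Sgk1*, -0.03 for *Nfkbia*, -0.22 for *Arl4d*, 0.12 for *Zbtb16*, -0.02 for *Klf9*, 0.11 for *Cebpb*, -0.08 for *Cebpd*, -0.16 for *Sult1a1*, -0.04 for *Mt1*, -0.13 for *Cdkn1a* and -0.06 for *Fam107a*.

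With each mouse left out in turn, log2 fold changes that turned ranged from -0.15 to 0.06 for *Hsd11b1*, -0.01 to 0.10 for *Klf9*, -0.26 to 0.08 for *Plin4*, -0.18 to 0.04 for *Angptl4*, -0.18 to 0.12 for *Txnip*, -0.07 to 0.07 for *Mt2*, -0.02 to 0.14 for *Fkbp5*, -0.21 to 0.01 for *Rasd1*, -0.14 to 0.16 for *Arl4d*, -0.24 to 0.15 for *Sult1a1*, -0.04 to 0.10 for *Mt1*, -0.01 to 0.05 for *Nr3c1*, -0.11 to 0.10 for *Map3k6*, -0.08 to 0.07 for *Pdk4*, -0.03 to 0.40 for *Sgk1*, -0.09 to 0.13 for *Zbtb16*, -0.04 to 0.06 for *Cebpb*, -0.04 to 0.14 for *Cebpd* and -0.09 to 0.20 for *Cdkn1a*.

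The median correlation between the genes was 0.25 to 0.38 under the other settings and 0.23 to 0.39 with each mouse left out. The tests of single correlations were less stable. The number of genes past the test with *Fkbp5* was 1 with normexp correction, 1 with median scaling and 0 without control 8.5 and MS 7.6, and 0 to 4 with 1 mouse left out. The number of pairs past the test was 3 with normexp correction, 0 with median scaling, 0 with the authors' log2 values and 0 without control 8.5 and MS 7.6, and 0 to 4 with 1 mouse left out. With 7 or 6 mice fewer pairings exist, so that the smallest possible p is larger.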
